A study of Mus musculus with 26 samples.

Results

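The Ly6 family is a group of small cell surface proteins, and 9 of its genes were followed here in ArKI mice, a knock-in strain, and in wild-type mice. The genes were *Ly6a*, *Ly6c1*, *Ly6d*, *Ly6e*, *Ly6g5b*, *Ly6g5c*, *Ly6g6c*, *Ly6h* and *Ly6k*, taken by symbol, and all 9 were found among the 23337 genes of the count tables. They were chosen by the testis counts, in which *Ly6d* showed one of the largest rises in the mutant mice. The testis values of the members are therefore given as a description, without a test, while the epididymal values, which the rule did not use, were tested. Earlier results of the whole series were known when the members were chosen.

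RNA was sequenced from 2 regions at the head of the epididymis, the caput and the initial segment (IS) before it, in 5 wild-type (WT) and 5 ArKI mice, and from the testis of 3 WT and 3 ArKI mice. ArKI mice carry a germline knock-in that replaces a pair of SUMO acceptor lysines of 1 protein by arginine, and are named here as in the labels. All mice were 3 months old and of a C57Bl/6N; 129 hybrid strain. The IS and caput samples came from one sequencing batch and the testis samples from another, so that tissue and batch cannot be told apart between epididymis and testis. A change of amino acids cannot be seen in counts per gene, so the genotypes rest on the labels.

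LY6 proteins share a domain, named LU after LY6 and the urokinase receptor, in which disulphide bonds hold finger-like loops together. Most are fixed to the outer face of the plasma membrane by a glycolipid anchor, and many are used as markers of leukocytes, stem cells or epithelia. In the male tract, proteins with this domain take part in sperm maturation. LY6K and its relative TEX101 work in male germ cells, where they are needed for the processing of the sperm surface protein ADAM3.

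The members lie in 2 clusters of the mouse genome (GRCm38, GENCODE M21). On chromosome 15, *Ly6d* spans 74762056 to 74763620, *Ly6k* 74796874 to 74799986, *Ly6e* 74955051 to 74959905, *Ly6a* 74994877 to 74998031, *Ly6c1* 75044018 to 75048830 and *Ly6h* 75551268 to 75567255. On chromosome 17, within the class III region of the major histocompatibility complex, *Ly6g6c* spans 35065388 to 35070050, *Ly6g5c* 35108279 to 35111991 and *Ly6g5b* 35113948 to 35115428. All are protein coding. *Ly6e*, *Ly6g5c* and *Ly6g6c* lie on the plus strand and the others on the minus strand.

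Total counts were 5829074 to 9770625 in the IS, 4125768 to 11913469 in the caput and 14077013 to 21376604 in the testis, and levels are given as CPM, counts scaled to a common library total with TMM factors, separately for epididymis and testis. A count of 3 was worth 0.247 to 0.692 CPM in the epididymis and 0.141 to 0.216 CPM in the testis. The shallowest sample, ArKI caput replicate 2, stood apart from the other ArKI caput samples in several members. WT caput replicates 3 and 4 held more RNA of genes typical of the IS than the other caput samples did. *Lcn8*, a lipocalin gene of the IS, was at 1079 and 1149 CPM in these 2 samples, against 42.8 to 200 CPM in the other WT caput samples and 13032 to 14259 CPM in the WT IS.

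In WT mice the members differed widely in level, and the order was not the same in the tissues. Levels were compared between genes only per exon length, as CPM divided by the exon length in kilobases (RPKM). In the WT IS, *Ly6g5b* was highest at 3752.5 RPKM ± 149 (SD, n = 5), followed by *Ly6g5c* at 2758 ± 215, *Ly6e* at 320 ± 13.3, *Ly6a* at 101 ± 6.60, *Ly6c1* at 17.4 ± 1.96 and *Ly6d* at 3.27 ± 0.278 RPKM. The ranges of these neighbours did not overlap. By CPM, *Ly6g5b* stood above 99.9% of all genes of the WT IS. *Ly6g6c*, *Ly6h* and *Ly6k* followed, with means of 0.183 to 0.454 RPKM and overlapping ranges.

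In the WT caput the first place went to *Ly6g5c* at 617 RPKM ± 298 (SD, n = 5). *Ly6e*, *Ly6g5b* and *Ly6a* followed at 220 ± 18.3, 187 ± 126 and 66.9 ± 6.27 RPKM, and the range of *Ly6g5b* overlapped with those of *Ly6g5c*, *Ly6e* and *Ly6a*. *Ly6d* at 10.5 ± 1.49 and *Ly6c1* at 8.17 ± 1.52 RPKM overlapped with each other, and the rest were below 1 RPKM on average. The WT testis showed another order. *Ly6k* was highest at 102 RPKM ± 7.74 (SD, n = 3), then *Ly6g6c* at 40.9 ± 0.727 and *Ly6e* at 21.4 ± 1.81 RPKM, without overlap. *Ly6a*, *Ly6g5b*, *Ly6d* and *Ly6c1* followed with means of 1.96 to 1.12 RPKM, each overlapping with the next, though *Ly6a* and *Ly6c1* did not overlap, and *Ly6g5c* and *Ly6h* were below these.

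**Figure D1:**
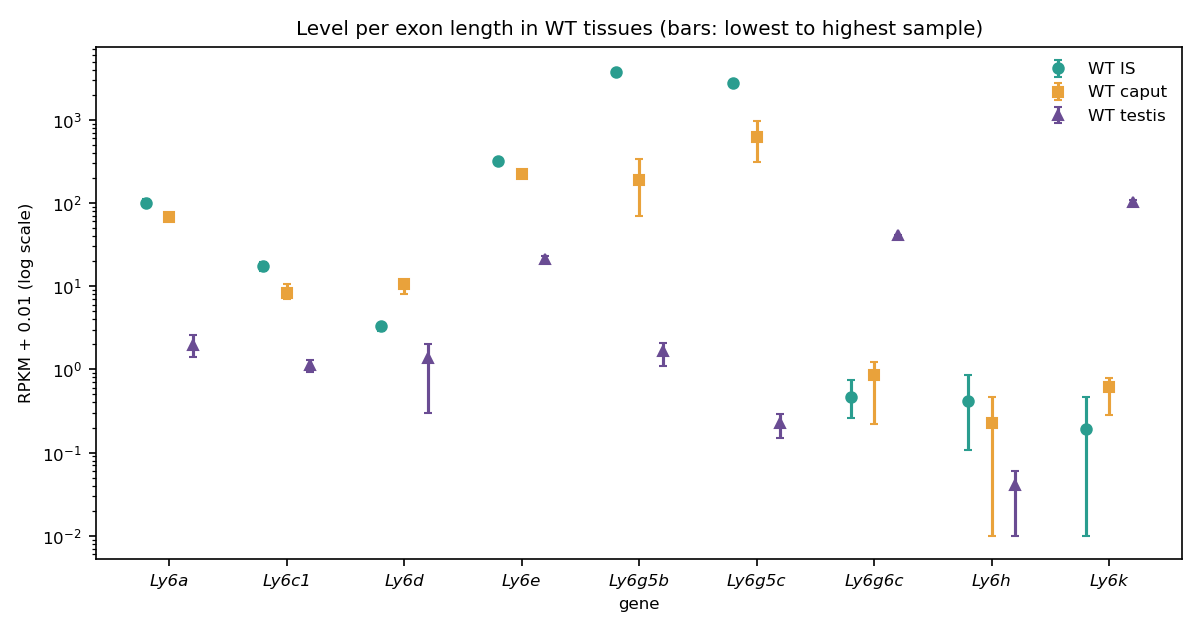
Level of each of the 9 genes per exon length in WT tissues, as RPKM + 0.01 on a log scale. Points are means of 5 IS, 5 caput and 3 testis samples and bars run from the lowest to the highest sample; *Ly6g5b* and *Ly6g5c* lead in the IS, whereas *Ly6k* and *Ly6g6c* lead in the testis. Testis values were normalised separately from the epididymal ones.

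The WT IS was next compared with the WT caput, to ask how the members are distributed along the epididymis. Of the 6 members that passed the filter on low counts, 5 were higher in the IS and 1 was lower at an adjusted p below 0.05 (quasi-likelihood test of edgeR, with p adjusted by Benjamini-Hochberg over all genes). Among all 13787 genes tested, 71.2% differed between the segments, 35.8% being higher and 35.4% lower in the IS. *Ly6g5b* was higher in the IS by 4.33 on the log2 scale (SE 0.50, edgeR adjusted p 5.8e-05) and *Ly6g5c* by 2.16 (SE 0.34, adjusted p 0.00039). *Ly6c1*, *Ly6a* and *Ly6e* were higher by 1.08 (SE 0.11), 0.59 (SE 0.062) and 0.54 (SE 0.056). *Ly6d* went the other way, with a log2 difference of -1.67 (SE 0.16, edgeR adjusted p 1.1e-08). For all 6 the WT IS and WT caput samples did not overlap, as was the case for 57.5% of all genes tested. Without WT caput replicates 3 and 4, the difference was 5.28 for *Ly6g5b* and 2.75 for *Ly6g5c*.

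The testis is where *Ly6d* was noticed. LY6D marks keratinocytes and other stratified epithelia as well as early B cells. Its counts were 22, 21 and 3 in the WT testis samples and 646, 709 and 540 in the ArKI samples, or 1.32, 1.51 and 0.214 CPM against 40.5, 33.3 and 31.2 CPM. Every ArKI testis lay far above every WT testis. The log2 fold change was 5.07 (SE 0.28), which was the second largest rise of the 15838 genes tested, after *Cdk5r2* at 5.10. Without WT replicate 3, in which only 3 reads were counted, the log2 fold change was 4.63.

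*Ly6e*, an interferon-inducible gene, had 53.5, 49.1 and 45.2 CPM in the WT and 132, 107 and 109 CPM in the ArKI testis, without overlap and with a log2 fold change of 1.23 (SE 0.084). *Ly6a*, which encodes the stem cell antigen SCA-1, had 1.32, 2.44 and 1.85 CPM in the WT and 2.26, 2.77 and 2.83 CPM in the ArKI testis. Its groups overlapped, and the log2 fold change was 0.51 (SE 0.23). *Ly6c1*, known from endothelial cells, had 1.74, 1.37 and 1.92 CPM in the WT and 2.07, 2.12 and 1.96 CPM in the ArKI testis, close to each other but without overlap, with a log2 fold change of 0.29 (SE 0.22).

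The members most abundant in the testis had log2 fold changes near 0. *Ly6k* had 74.3, 86.5 and 81.2 CPM in the WT and 94.3, 79.4 and 83.1 CPM in the ArKI samples (log2 fold change 0.09, SE 0.076). *Ly6g6c* had 38.8, 39.2 and 40.1 CPM in the WT and 37.2, 41.1 and 38.3 CPM in the ArKI samples (log2 fold change -0.02, SE 0.076). *Ly6g5b* lay at 1.14 to 2.16 CPM in the WT and 1.63 to 1.79 CPM in the ArKI testis. *Ly6g5c*, with 1 to 5 counts, and *Ly6h*, with 0 to 2 counts, were too low for a comparison. By the call used in the epididymis, 2 of the 7 members tested were higher and 0 lower in ArKI testis, where 1.64% of all genes were higher and 0.328% lower. Since this contrast chose the members, nothing is read from that count. The groups did not overlap in 3 of the 7, and in 17.8% of all genes tested.

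**Figure D2:**
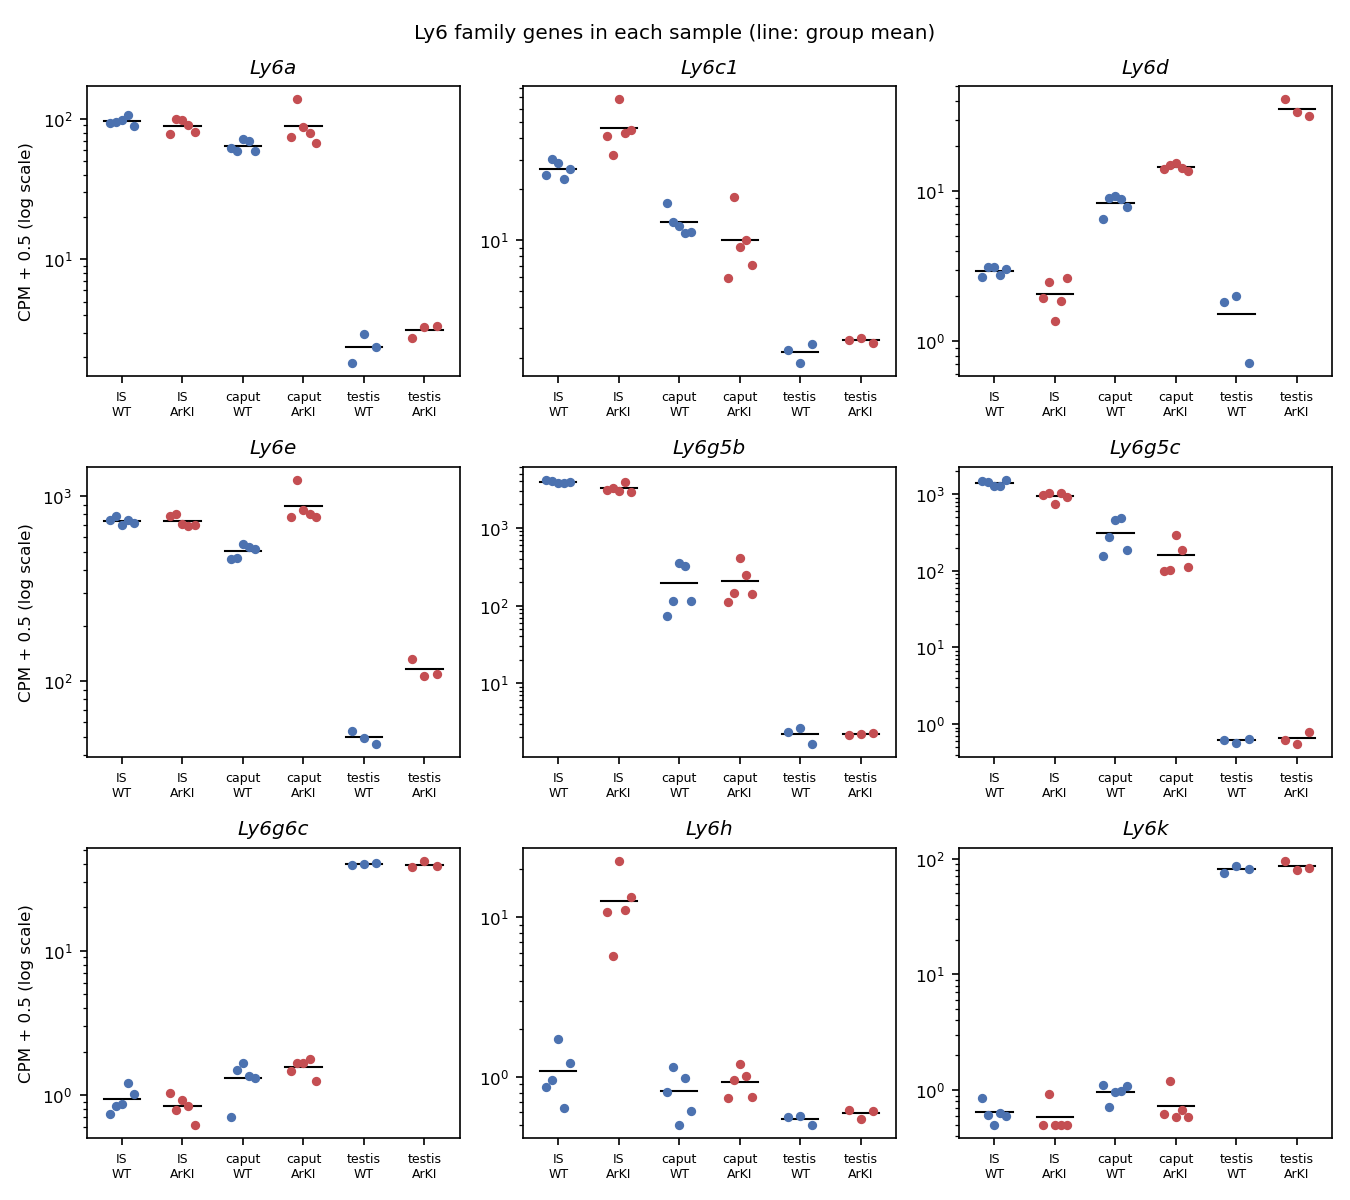
CPM + 0.5 of each gene in each sample on a log scale, by tissue and genotype; points are samples, lines are group means, and testis samples were normalised separately. *Ly6d* in the testis runs from 0.214 to 1.51 CPM in the WT and from 31.2 to 40.5 CPM in the ArKI samples, and *Ly6h* separates the genotypes in the IS but not in the caput.

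Markers of cells that could carry these transcripts were read in the same testis samples. The 12 basal and stratified epithelial genes summed to 20.1 to 22.4 CPM in the WT and 20.5 to 22.3 CPM in the ArKI testis, with the keratin genes *Krt6a* and *Krt17* and the desmoglein gene *Dsg3* at no more than 3 counts in every testis sample. The 14 epididymal epithelial genes summed to 207 to 244 CPM in the WT and 235 to 246 CPM in the ArKI testis, most of it from *Cst8*, while *Lcn9* and *Crisp4* had at most 3 counts in every sample. *Ly6d* itself was lower in the WT caput, at 6.06 to 8.77 CPM, and in the ArKI caput, at 13.0 to 14.9 CPM, than in ArKI testis, on scales set separately. The 13 leukocyte genes summed to 30.0 to 31.3 CPM in the WT and 34.1 to 36.6 CPM in the ArKI testis, without overlap. By edgeR, 0 of the 8 tested passed at an adjusted p below 0.05. Of these, 6 had log2 fold changes above 0, and the median was 0.166.

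The summed levels of the Leydig cell and interferon lists also lay apart between the genotypes, though most of their genes did not pass the test. The 11 Leydig cell genes summed to 854 to 1077 CPM in the WT and 1209 to 1295 CPM in the ArKI testis. By edgeR, 3 of the 11 were higher at an adjusted p below 0.05, and the other 8 had log2 fold changes of -0.89 to 0.33. The median of the 11 was 0.108, and 1.64% of all genes tested were higher. Of the 3 most abundant, *Cyp17a1* had 252 to 324 CPM in the WT and 421 to 454 CPM in the ArKI samples, *Scarb1* 146 to 157 and 152 to 167 CPM, and *Cyp11a1*, which starts steroid synthesis, 115 to 150 and 248 to 274 CPM. The 23 interferon response genes summed to 55.0 to 58.6 CPM in the WT and 68.2 to 71.6 CPM in the ArKI testis. By edgeR, 1 of 15 tested, *Oasl2*, was higher at an adjusted p below 0.05. All 15 had log2 fold changes above 0, with a median of 0.352, where the median of all genes was -0.002. *Oasl2*, the third most abundant, had 3.72 to 4.89 CPM in the WT and 7.16 to 8.23 CPM in the ArKI samples, while *Stat2* had 6.54 to 8.84 and 8.59 to 10.2 CPM. The 12 Sertoli cell genes, by contrast, summed to 1249.7 to 1303 CPM in the WT and 1229 to 1396 CPM in the ArKI testis, with overlap. The part of these differences in the *Ly6d* and *Ly6e* values was not tested. In bulk tissue, more cells of a type and more RNA per cell cannot be told apart.

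The germ cell genes that work with LY6K were read beside it. Of 13 partner genes tested in the testis, 0 were called by edgeR in either direction at an adjusted p below 0.05 and 0 at an unadjusted p below 0.05, and their median log2 fold change was -0.013. *Adam3* lay at 1323 to 1417 CPM in the WT and 1296 to 1461 CPM in the ArKI testis, and *Clgn*, a chaperone of the germ cell endoplasmic reticulum, at 775 to 819 and 744 to 824 CPM. *Tex101*, the relative that binds LY6K, lay at 198 to 215 CPM in the WT and 189 to 219 CPM in the ArKI testis. The 16 spermatid and sperm genes, with *Prm2* and *Ldhc* among the highest, had 0 calls by edgeR, 1 at an unadjusted p below 0.05, and a median of 0.068.

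In the ArKI IS 7 members were tested, and *Ly6h* passed the filter on low counts only through the ArKI samples, in which it is high. Of the other 6, 1 rose and 2 fell, where 15.0% of all 13434 genes tested rose and 14.6% fell. The limits of the study, an adjusted p below 0.01 and a fold change above 2, were met by 0 of these 6 and by 4.04% of all genes. *Ly6h*, a brain-enriched gene whose protein acts on nicotinic acetylcholine receptors, had the largest difference. It had 0.362, 0.457, 1.24, 0.141 and 0.731 CPM in the WT samples and 10.3, 5.20, 22.0, 10.6 and 13.0 CPM in the ArKI samples, from 1 to 10 counts against 37 to 154 counts. Every ArKI sample was above every WT sample. The log2 fold change was 4.32 (SE 0.50), given without a p because the difference itself let the gene pass the filter. In a fit with no filter beyond 1 count it was 4.31 (edgeR adjusted p 0.00035).

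*Ly6c1* rose in the ArKI IS by 0.80 on the log2 scale (SE 0.19, edgeR adjusted p 0.013). Its levels were 23.8, 29.6, 28.3, 22.6 and 25.9 CPM in the WT and 40.7, 31.2, 67.8, 42.5 and 44.5 CPM in the ArKI samples, again without overlap. The 12 endothelial marker genes moved the opposite way in the same samples. All 12 fell, with a median of -0.503 where the median of all genes was 0, and they summed to 258 to 316 CPM in the WT and 180 to 210 CPM in the ArKI IS. The largest falls were those of *Robo4*, *Eng* and *Emcn*, by 0.80, 0.75 and 0.62 on the log2 scale. The leukocyte list, in which 4 of 8 genes tested fell and 0 rose, summed to 112 to 145 CPM in the WT and 84.1 to 118 CPM in the ArKI IS. The part of these cells in the *Ly6c1* value was not tested.

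The pair that dominates the WT IS fell. *Ly6g5c* had 1487, 1430.4, 1294, 1285 and 1524 CPM in the WT and 966, 1028, 739, 1036 and 911 CPM in the ArKI samples. The groups did not overlap, and the log2 fold change was -0.59 (SE 0.084, edgeR adjusted p 0.00016). *Ly6g5b* had 4107, 4057, 3815, 3741 and 3905 CPM in the WT and 3057, 3263, 3017, 3865 and 2896 CPM in the ArKI samples. Replicate 4 of the ArKI group reached into the WT range, and *Ly6g5b* fell by 0.29 on the log2 scale (SE 0.064, edgeR adjusted p 0.0026). In one fit of all 4 epididymal groups, which pools the wider spread of the caput, neither difference passed (edgeR adjusted p 0.20 for *Ly6g5c* and 0.65 for *Ly6g5b*). Secretory genes of the same epithelium also fell in the IS. Of 14 epididymal epithelial genes, 6 fell and 2 rose, with *Crisp1*, *Crisp4* and *Cst8* falling by 2.58, 0.71 and 0.57, and *Adam7* and *Cst11* rising by 0.48 and 0.37 on the log2 scale.

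The remaining members of the IS did not pass the test. *Ly6d* had 2.17, 2.63, 2.61, 2.26 and 2.51 CPM in the WT and 1.45, 1.97, 0.857, 1.37 and 2.13 CPM in the ArKI samples. The ArKI samples were all below the WT samples, from 6 to 18 counts against 16 to 24 counts, with a log2 fold change of -0.63 (SE 0.25, edgeR adjusted p 0.064). Without ArKI replicate 5 it passed, at -0.78 (edgeR adjusted p 0.040). *Ly6a* had a log2 fold change of -0.11 (SE 0.069, edgeR adjusted p 0.25), and *Ly6e* one of 0.0037 (SE 0.051, edgeR adjusted p 0.97) at 701 to 780 CPM in the WT and 689 to 803 CPM in the ArKI IS. Of the 6 members other than *Ly6h*, 3 had groups that did not overlap, against 20.0% of all genes tested. Of the 9 basal epithelial genes tested in the IS 6 fell, led by *Col17a1*, *Krt5* and *Itgb4*, by 0.97, 0.66 and 0.47 on the log2 scale, and the list summed to 580 to 634 CPM in the WT and 464 to 497 CPM in the ArKI samples. Its part in the *Ly6d* value was not tested.

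In the ArKI caput, 2 of the 6 members tested rose and 0 fell by edgeR (0 also at an unadjusted p below 0.05 and by DESeq2, and 1, *Ly6c1*, by limma-voom), where 13.7% of all 13726 genes tested rose and 14.0% fell. With the limits of the study 0 members passed, and 4.98% of all genes. *Ly6d* had 6.06, 8.51, 8.77, 8.29 and 7.37 CPM in the WT and 13.6, 14.5, 14.9, 13.7 and 13.0 CPM in the ArKI samples. The genotypes did not overlap, and the ArKI samples lay close together. The log2 fold change was 0.84 (SE 0.11, edgeR adjusted p 2.2e-05), far smaller than the value of 5.07 in the testis. Of the basal epithelial genes tested in the caput only *Col17a1* changed, falling by 0.37 on the log2 scale, and the list summed to 361 to 426 CPM in the WT and 374 to 413 CPM in the ArKI caput.

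*Ly6e* also rose in the ArKI caput, by 0.80 on the log2 scale (SE 0.13, edgeR adjusted p 0.00086). Its levels were 460.4, 465, 555, 534 and 517 CPM in the WT and 770.4, 1223, 841, 805 and 774 CPM in the ArKI samples, so that all ArKI samples were above all WT samples and replicate 2 was well above the rest. Without that replicate the log2 fold change was 0.66. Of the 23 interferon response genes tested in the caput 3 rose, namely *Ifi44*, *Irf7* and *Irf9*, by 1.03, 0.33 and 0.26. Since 13.7% of all genes tested rose, this count of rises is near the background. There were 0 falls, where 14.0% of all genes fell. The log2 fold change was above 0 in 19 of the 23, with a median of 0.309 against 0.002 for all genes. The list summed to 323 to 402 CPM in the WT caput and to 362, 559, 417, 375 and 376 CPM in ArKI replicates 1 to 5. Its part in the *Ly6e* value was not tested.

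The results of *Ly6a* and *Ly6c1* depended on the same replicate. *Ly6a* had 58.6 to 71.1 CPM in the WT caput and 73.4, 138, 87.8, 78.6 and 66.4 CPM in the ArKI samples, with a log2 fold change of 0.45 (SE 0.19, edgeR adjusted p 0.12, or 0.032 in one fit of all 4 epididymal groups). *Ly6c1* had 10.5 to 16.1 CPM in the WT and 5.43, 17.5, 8.60, 9.56 and 6.60 CPM in the ArKI samples, with a log2 fold change of -0.45 (SE 0.26, edgeR adjusted p 0.24). Replicate 2 was the highest ArKI sample for both. Without it, both passed the test, with *Ly6a* at 0.27 (edgeR adjusted p 0.018) and *Ly6c1* at -0.68 (edgeR adjusted p 0.0047). Then 4 of 6 members were called. That count is given without the share of all genes called in the same fit, and nothing about the family is read from it. Replicate 2 also had the highest summed endothelial and leukocyte markers of the ArKI caput, at 199 and 117 CPM against 151 to 174 and 79.0 to 87.7 CPM in the other 4. The part of these cells was not tested.

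*Ly6g5b* and *Ly6g5c* varied widely among caput samples of the same genotype. *Ly6g5c* had 157, 278, 455, 490 and 189 CPM in the WT and 99.2, 102, 295, 188 and 110 CPM in the ArKI samples, with a log2 fold change of -0.97 (SE 0.45, edgeR adjusted p 0.16). The means were 314 CPM ± 152 in the WT and 159 CPM ± 84.3 in the ArKI samples (SD, n = 5 each), and the difference passed in one fit of all 4 epididymal groups (edgeR adjusted p 0.035). *Ly6g5b* had 73.3, 114, 352, 323 and 114 CPM in the WT and 111, 145, 407, 245 and 138 CPM in the ArKI samples, with a log2 fold change of 0.11 (SE 0.56, edgeR adjusted p 0.92). Their highest samples were also those with most *Lcn8* and *Cst8*. Without WT replicates 3 and 4, the values were -0.38 for *Ly6g5c* and 1.07 for *Ly6g5b*, and neither passed (edgeR adjusted p 0.63 and 0.21).

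**Figure D3:**
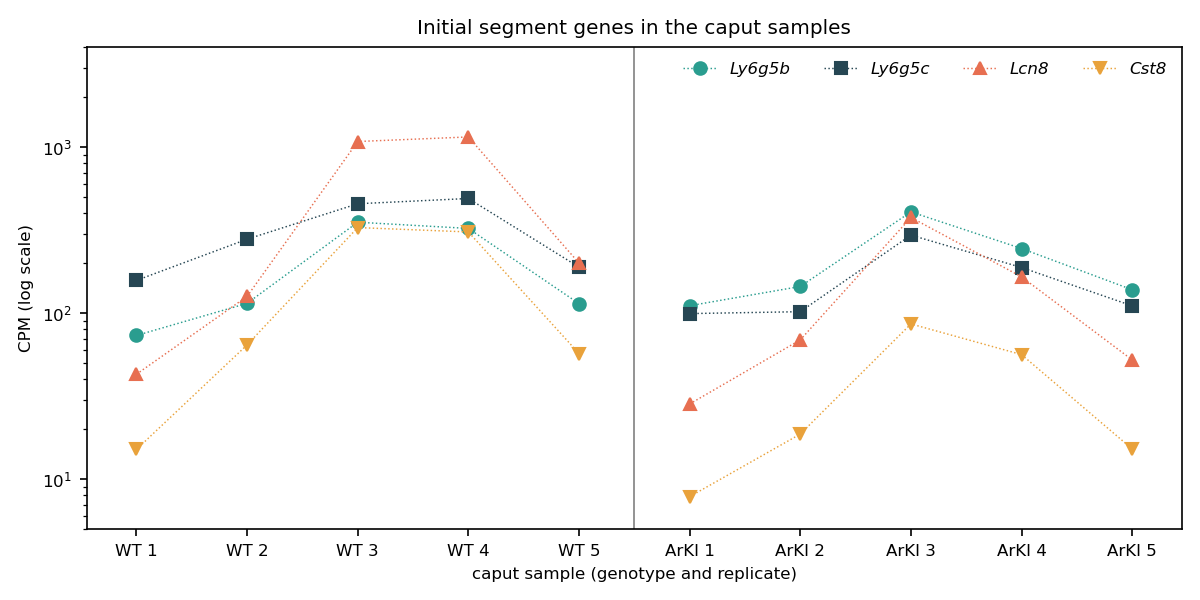
CPM of *Ly6g5b*, *Ly6g5c* and the IS genes *Lcn8* and *Cst8* in the 10 caput samples, by genotype and replicate number, on a log scale; dotted lines only join the points of a gene. WT replicates 3 and 4, with *Lcn8* at 1079 and 1149 CPM, and ArKI replicate 3, with *Lcn8* at 376 CPM, are also the samples with most *Ly6g5b* and *Ly6g5c* of their genotype.

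The members expressed mainly in the testis or brain were near the limit of detection in the caput. There, *Ly6k* had 2 to 6 counts in the WT and 1 to 3 in the ArKI samples, *Ly6g6c* 2 to 10 and 5 to 15 counts, and *Ly6h* 0 to 6 and 2 to 8 counts. In the IS *Ly6g6c* had 2 to 5 and 1 to 4 counts. For these 4 values exact two-sided permutation tests of log2(CPM + 0.5) gave p = 0.095 for *Ly6k*, 0.24 for *Ly6g6c* and 0.40 for *Ly6h* in the caput and 0.40 for *Ly6g6c* in the IS, and adjusted values of 0.38 to 0.40, where 0.00794 is the smallest p that 5 against 5 samples allow. *Ly6k* had no more than 3 counts in any IS sample, too few to detect a difference. The 16 genes of late spermatids and sperm summed to 376 to 573 CPM in the WT and 109 to 185 CPM in the ArKI caput. Of 8 partner genes of LY6K and TEX101 tested there, *Clgn* passed the filter through the WT samples alone, and of the other 7, *Adam5* and *Ace* fell, by 1.64 and 0.22 on the log2 scale. In the IS 0 of 5 partner genes passed the edgeR test, and 1 had an unadjusted p below 0.05.

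**Figure D4:**
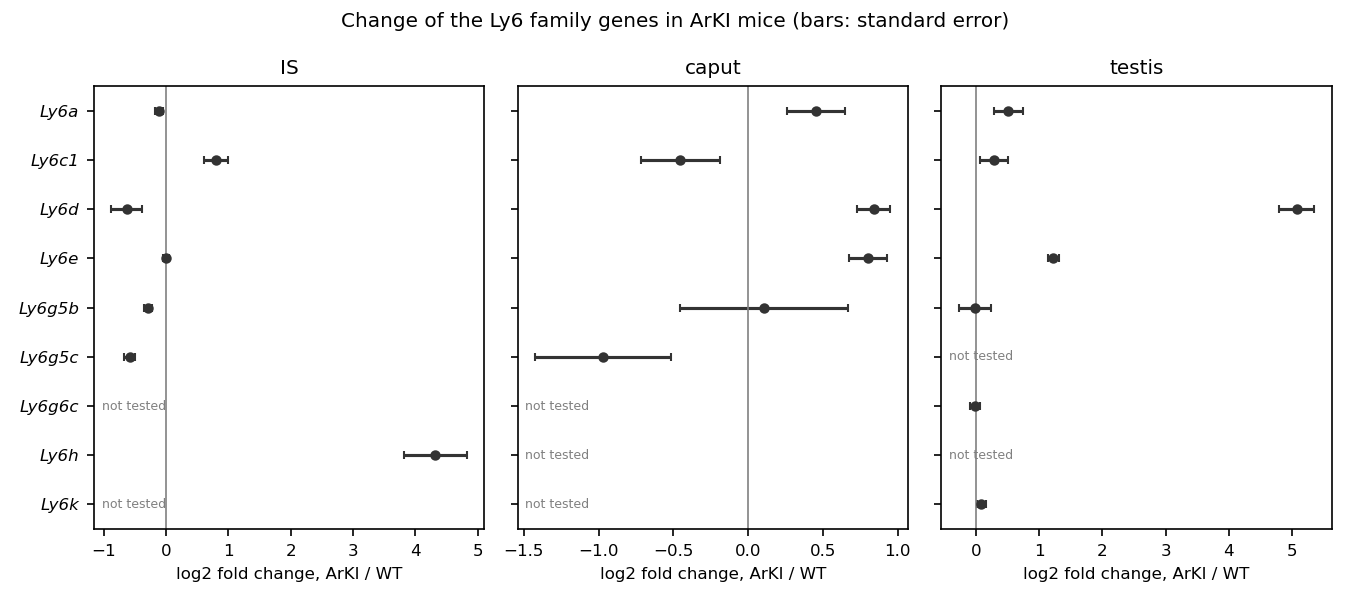
Log2 fold change of ArKI against WT for each gene in the IS (5 against 5), caput (5 against 5) and testis (3 against 3) from edgeR; bars are the standard error, the scales differ between panels, and genes below the filter on low counts are marked as not tested. *Ly6d* reaches 5.07 in the testis and 0.84 in the caput, and *Ly6h* reaches 4.32 in the IS.

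Whether the effect of the mutation differed between the segments was tested as the interaction of segment and genotype. Leaving aside *Ly6h*, which enters this fit only through its ArKI IS samples, 3 of 6 members passed, 2 with a higher and 1 with a lower value in the caput, where 7.38% and 7.77% of all 14329 genes did. With the limits of the study 1 of the 6, *Ly6d*, passed, and 3.10% of all genes. The effect on *Ly6d* was 1.46 higher in the caput than in the IS on the log2 scale (SE 0.24, edgeR adjusted p 0.00012), from -0.63 in the IS to 0.84 in the caput. That on *Ly6e* was 0.80 higher (SE 0.14, edgeR adjusted p 0.00035), from 0.0037 to 0.80. For *Ly6c1* the difference was -1.28 (SE 0.34, edgeR adjusted p 0.014). For *Ly6h*, with at most 8 counts in the caput and 10 in the WT IS, it was -3.87 (SE 1.00), with an edgeR adjusted p of 0.016 in the fit with no filter beyond 1 count. In the filtered fit it did not pass without WT caput replicate 2 (edgeR adjusted p 0.064). For *Ly6a*, *Ly6g5b* and *Ly6g5c* the differences of 0.55 (SE 0.21), 0.39 (SE 0.57) and -0.39 (SE 0.46) did not pass. That of *Ly6a* passed without ArKI caput replicate 2, at 0.37, or replicate 5, at 0.63 (both edgeR adjusted p 0.034), and by DESeq2, at 0.57 (adjusted p 0.021).

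Among the relatives with the same domain, 24 of 28 listed genes were in the tables. Of the 8 tested in the IS, *Ly6f* passed the filter through the ArKI samples, since 1 of 5 WT samples reached the minimum of 1.28 CPM, and of the other 7, 2 rose and 2 fell, where 15.0% and 14.6% of all genes did. Of the 11 tested in the caput, *Gpihbp1* and *Lypd6b* passed through the ArKI samples, each with 2 of 5 WT samples at the minimum of 1.11 CPM. Of the others, 2 rose and 2 fell, where 13.7% and 14.0% of all genes did. *Ly6f*, a neighbour of *Ly6c1* on chromosome 15 at 75268421 to 75272235, had the largest log2 fold change in both. It had 1.33, 1.03, 0.621, 0.990 and 1.25 CPM in the WT IS and 3.17, 7.03, 4.43, 4.44 and 5.08 CPM in the IS of ArKI mice, with a log2 fold change of 2.18 (SE 0.26), given without a test for the reason above. In the caput it had 8.72, 7.53, 4.33, 4.51 and 5.62 CPM in the WT and 22.3, 59.2, 24.8, 23.9 and 32.6 CPM in the ArKI samples, with a log2 fold change of 2.33 (SE 0.35, edgeR adjusted p 0.0010). All ArKI samples exceeded all WT samples in both segments, and the testis held 0 to 2 counts.

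*Lypd6*, whose protein modulates WNT signalling, rose by 0.94 in the IS (SE 0.34, edgeR adjusted p 0.047), where 2 of 5 WT and 4 of 5 ArKI samples reached the minimum, and by 1.01 in the caput (SE 0.18, edgeR adjusted p 0.00032). *Lynx1*, a modulator of nicotinic receptors, rose by 0.60 in the IS (SE 0.20, edgeR adjusted p 0.031). Its log2 fold change in the caput was -0.048 (SE 0.19, edgeR adjusted p 0.89). *Gpihbp1*, which carries lipoprotein lipase to the capillary wall, had log2 fold changes of 0.84 in the caput and -0.54 in the IS (SE 0.23, edgeR adjusted p 0.084). Its effect differed between the segments by 1.38 (SE 0.38, edgeR adjusted p 0.012), 1 of 13 relatives tested where 15.1% of all genes passed, so that the count is no more than the background. In the same test 8 of the 12 endothelial genes had a higher effect in the caput and 0 a lower one, with a median of 0.742. The part of these cells in the *Gpihbp1* value was not tested. *Ly6g6e*, from the chromosome 17 cluster, fell by 0.40 in the IS and 0.70 in the caput. *Lypd3* fell by 0.54 in the IS, and *Cd59a*, a complement inhibitor, by 0.34 in the caput. In the testis 3 of 12 relatives tested were higher and 0 lower by edgeR at an adjusted p below 0.05. Of all genes, 1.64% were higher and 0.328% lower. The median log2 fold change of these relatives was 0.054, where that of all genes was -0.002. The most abundant relative of the testis, *Lypd4*, lay at 438 to 487 CPM in the WT and 454 to 502 CPM in the ArKI samples.

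**Figure D5:**
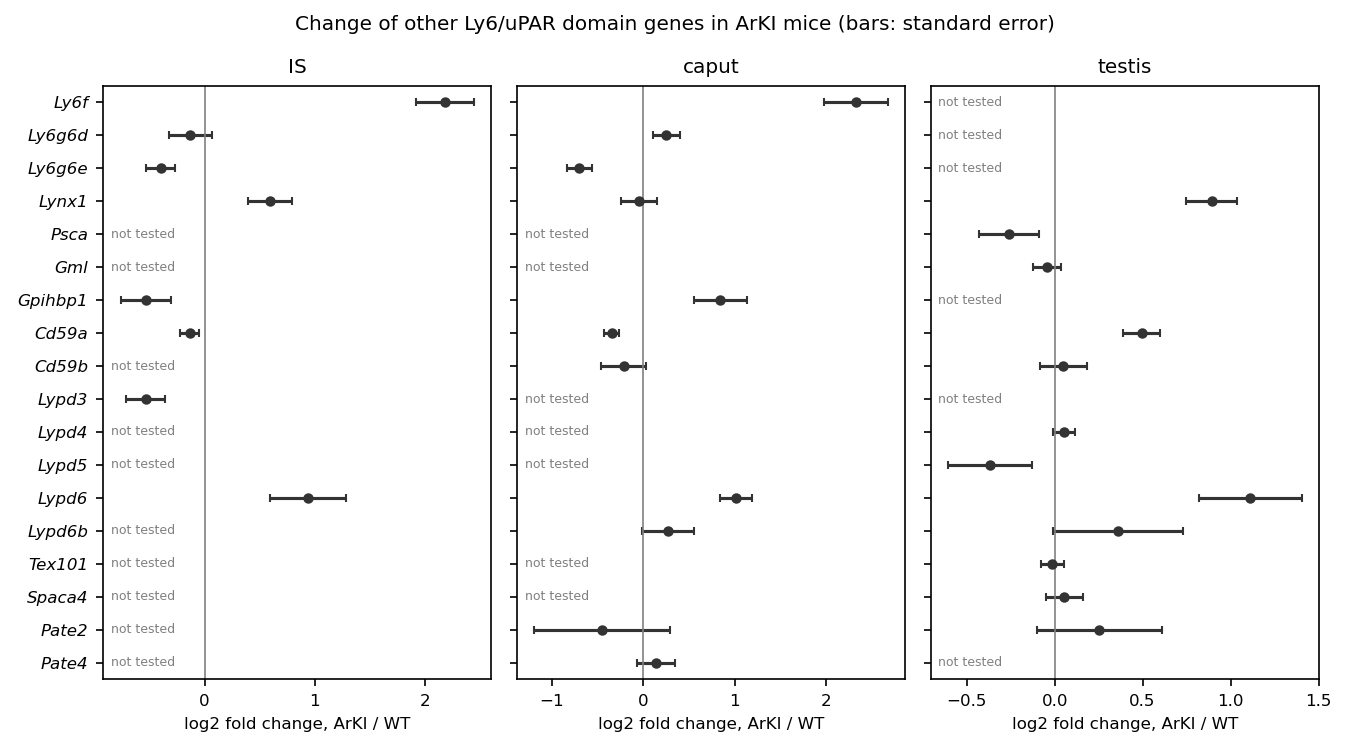
Log2 fold change of ArKI against WT, from edgeR, for the relatives with an LU domain that could be tested in at least 1 tissue; bars are the standard error, and the scales differ between panels. *Ly6f* is at 2.18 in the IS and 2.33 in the caput, and *Lypd6* at 0.94 in the IS and 1.01 in the caput.

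The neighbours *Ly6c1* and *Ly6f* have promoter windows that resemble each other. Both genes were higher in every ArKI than in every WT sample of the IS, whereas in the caput *Ly6f* rose and *Ly6c1* had a log2 fold change of -0.45. The windows run from 250 bases before to 50 bases after the start of the RefSeq transcript (GRCm38.p6), are written on the strand of the gene, and show in capitals the matches to any of 3 motifs on either strand. The motifs are the interferon gamma activated site TTCNNNGAA, the ETS core GGAAGT and the TATA box TATAAA. Second starts of *Ly6c1* and *Ly6g5b* in the table are not shown.
Ly6c1 (chr15:75048788-75049087, minus strand): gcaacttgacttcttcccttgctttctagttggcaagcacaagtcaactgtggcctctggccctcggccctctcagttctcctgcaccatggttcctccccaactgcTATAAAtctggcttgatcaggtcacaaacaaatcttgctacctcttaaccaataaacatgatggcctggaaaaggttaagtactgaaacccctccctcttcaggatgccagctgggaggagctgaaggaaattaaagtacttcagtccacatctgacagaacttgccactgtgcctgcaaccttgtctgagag
Ly6f (chr15:75268171-75268470, plus strand): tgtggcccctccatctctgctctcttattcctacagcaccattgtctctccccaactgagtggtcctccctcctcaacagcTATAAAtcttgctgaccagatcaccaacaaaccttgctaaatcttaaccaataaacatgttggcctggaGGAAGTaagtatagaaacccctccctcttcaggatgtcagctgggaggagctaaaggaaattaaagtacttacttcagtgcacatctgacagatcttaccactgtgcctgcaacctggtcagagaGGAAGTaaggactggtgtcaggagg
A local alignment of these windows had 182 identical bases in 210 columns, or 86.7%. Both hold the letters TATAAA, as do 13.6% of the 32851 promoter windows of the table. GGAAGT is found at 2 places in the *Ly6f* window and at none in the *Ly6c1* window shown, at 1 place in the window of the second *Ly6c1* start, and in 23.8% of all windows.

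The neighbours *Ly6g5c* and *Ly6g5b*, the highest members in the WT IS and both lower in the ArKI IS, are shown the same way.
Ly6g5c (chr17:35108044-35108343, plus strand): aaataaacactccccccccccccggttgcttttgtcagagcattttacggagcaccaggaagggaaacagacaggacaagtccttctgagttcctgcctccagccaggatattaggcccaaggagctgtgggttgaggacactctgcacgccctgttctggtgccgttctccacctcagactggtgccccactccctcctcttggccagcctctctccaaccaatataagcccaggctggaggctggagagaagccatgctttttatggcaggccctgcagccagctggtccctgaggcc
Ly6g5b (chr17:35115460-35115759, minus strand): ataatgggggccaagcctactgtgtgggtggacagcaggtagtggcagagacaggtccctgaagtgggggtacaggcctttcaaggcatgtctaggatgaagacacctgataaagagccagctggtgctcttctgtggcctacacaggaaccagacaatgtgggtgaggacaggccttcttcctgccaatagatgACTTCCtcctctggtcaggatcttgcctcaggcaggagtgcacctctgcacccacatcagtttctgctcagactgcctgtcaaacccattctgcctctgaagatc
The *Ly6g5c* window holds none of the motifs. The *Ly6g5b* window holds GGAAGT on the opposite strand at position -55. TTCNNNGAA, present in 8.30% of windows, was found in none of the 4 windows shown. These are matches of letters, and binding was not measured here.

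Part of the sequence of some members cannot be assigned to 1 gene with reads of 50 bases. Of the 50-base windows of the *Ly6c1* transcripts 32.8% also occur in other genes, mainly *Ly6c2* and *Ly6a*, and of those of *Ly6a* 19.0%. Of the *Ly6k* windows 32.7% lie in the antisense gene *Gm17189*. Values of these 3 genes are therefore uncertain to that extent. For *Ly6d*, *Ly6e*, *Ly6g5b*, *Ly6g5c*, *Ly6g6c* and *Ly6f* the share was 0%. *Ly6g6c* overlaps *Mpig6b* on the other strand.

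The genes most like *Ly6d* over all 26 samples were sought among 12231 genes that passed the filter in all tissues, by Pearson's r of log2(CPM + 0.5). They were *Erp29* (r = 0.824), *Nkain4* (0.758), *Snf8* (0.749), *Uqcr10* (0.739) and *Nop10* (0.737). These samples share tissue and batch, so that r is given as a description only. The nearest gene in pattern did not follow the size of the change, as *Erp29* had a log2 fold change of 0.34 in the testis. Within the family, *Ly6e*, the other member with a large testis difference, had r = -0.0018 with *Ly6d*.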

How the data were processed

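RNA was sequenced by the authors as single-end 50-base reads, from 26 samples in 6 groups taken from the labels. Per the labels and the methods, reads were aligned to mm10 with STAR and uniquely mapped reads per gene were counted with Subread 1.5.1. The deposited values are raw counts per gene, with no normalization or filter. The labels name a kit that does not keep strand and the methods a stranded one, and the strand setting of the counting is not given in the sources used here.

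Counts were fitted with edgeR 4.0.16 (robust quasi-likelihood test, TMM, filterByExpr with a minimum count of 10 and total of 15, R 4.3.3), each tissue on its own, with Benjamini-Hochberg adjustment over all genes tested. A gene rose or fell at an adjusted p below 0.05. The SE of a log2 fold change was derived from the F value. The fit was tested on simulated data. The study's own limits (adjusted p below 0.01 in the epididymis or 0.2 in the testis, and a fold change above 2), DESeq2 1.42.0, limma-voom (limma 3.58.1), other scalings and filters, a fit of all epididymal groups, a replicate block and leaving out samples were alternatives. CPM were scaled over the 20 epididymal and the 6 testis samples separately. RPKM used the exon length of RefSeq-matched transcripts of GENCODE M21.

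Members below the filter were tested by exact permutation of log2(CPM + 0.5), unless no sample had more than 3 counts. The members and gene lists were chosen with earlier results of these data known. From each list at most 3 rises and 3 falls of the IS and caput are named, and in the testis values of its 3 most abundant genes at most and markers with 3 counts or fewer. *Cst8* was added after its values were seen. Lists hold 4 relatives that were not used here. All replicate pairs differed beyond sampling noise. p-values measure the spread between mice. In the segment and interaction tests, IS and caput samples were treated as independent, though they appear to come from the same mice. Promoters are from RefSeq. Results on certain withheld items are not reported here.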

Additional observations from a re-analysis of the deposited data

Results flagged for a closer look

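1 sample was far from the others of its group: *Ly6e* in ArKI caput replicate 2, at 1223 CPM. Of 33 group values of the members looked at, 1 was flagged in this way, where chance gives about 1.65. This library was also the shallowest, and its summed interferon response genes were the highest of the caput samples, at 559 CPM. Their part in the value was not tested.

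In 3 members, *Ly6d*, *Ly6e* and *Ly6c1*, the effect of the ArKI mutation differed between the segments by the interaction test of edgeR. The caput effect minus the IS effect was 1.46 for *Ly6d*, 0.80 for *Ly6e* and -1.28 for *Ly6c1* on the log2 scale. *Ly6d* and *Ly6c1* had opposite signs in the segments, and *Ly6e* moved in the caput. By themselves, *Ly6d* in the IS (edgeR adjusted p 0.064) and *Ly6c1* in the caput (edgeR adjusted p 0.24) did not pass. *Ly6h* had a difference of -3.87, but it passed the filter only through its ArKI IS samples, with up to 154 counts there against at most 8 in the caput, and is not counted.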

How the results depend on the processing

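For 30 tested values of single members in the epididymis, 556 values under other settings were computed. Of these, 520 kept their direction and their side of the limit, 13 fell below the limit, 12 came to pass it and 11 changed sign, none of them passing the limit in either setting. *Ly6e* in the IS was -0.0025 with no filter beyond 1 count and -0.029 to 0.028 with 1 sample left out. With 1 sample left out, *Ly6g5b* was -0.28 to 0.43 in the caput and -0.016 to 0.70 in the interaction. *Ly6g5c* in the interaction was 0.20 without WT caput replicates 3 and 4. The testis values of 7 members carry no test, and 5 of their 91 values under other settings changed sign, all of *Ly6g5b* and *Ly6g6c*. With the study's limits, 1 member was called in the IS (4 before), 0 in the caput (2 before) and 1 in the interaction (4 before). Without *Ly6h*, which the filter let pass only through its ArKI IS samples, these were 0 in the IS (3 before) and 1 in the interaction (3 before). With all 4 epididymal groups in one fit, 4 members were called in the caput, with *Ly6a* and *Ly6g5c* added. Leaving out 1 sample at a time gave 4 to 5 calls in the IS, 2 to 4 in the caput, 6 in the WT segments and 3 to 5 in the interaction, and log2 fold changes of 4.63 to 5.41 for *Ly6d* in the testis. The 4 in the caput came without ArKI replicate 2. *Ly6d* in the IS passed with limma-voom, in the fit of all groups and without ArKI replicate 5, with adjusted p from 0.030 to 0.16 over the alternatives. The cause of these changes was not tested. The choice after seeing the data to leave out WT caput replicates 3 and 4 gave 2 calls in the caput. Counts of calls in this section, also those with the replicate block, are given without the share of all genes called. Nothing about the family is read from them.

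By the methods, IS and caput were taken from 5 WT and 5 ArKI mice, so the segments appear to share mice. Replicate numbers are shared by the groups, but the sample titles do not say whether they mark the same mouse. Same-numbered IS and caput samples had r of -0.009 to 0.178 in the WT and -0.106 to 0.186 in the ArKI mice. Over all pairs of groups compared, also those of different mice, r was -0.176 to 0.196. The numbers were not taken as pairs. The segment and interaction tests therefore treated IS and caput samples as independent. With the replicate block 4 members were called in the IS, 3 in the caput, 6 between the WT segments and 4 in the interaction, and the log2 fold change of *Ly6d* in the testis was 5.10. Only *Ly6g5c* in the caput came to pass with the block, at an adjusted p of 0.0076. Depth limits *Ly6g6c* and *Ly6k* in the epididymis and *Ly6h* in the caput and WT IS. The other counts of calls for the IS and the interaction include *Ly6h*.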
